A study of Homo sapiens with 6 samples.

Results

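The plasminogen activation genes and serine proteases described here are 8 named genes of 20851 in the deposited table, chosen by gene name with earlier results of the same comparison known. They comprise the plasminogen activators PLAU (urokinase, uPA) and PLAT (tissue-type activator, tPA), the urokinase receptor PLAUR, the serpins SERPINE2, SERPINB8 and SERPINF1, and the serine proteases TMPRSS15 and HTRA1. The study compared A375RIPK4.KO cells, clone #1 of the human melanoma line A375 in which RIPK4 was disrupted with CRISPR/Cas9 and a lentiviral guide RNA, with A375neg cells, which carry a non-targeting guide RNA and are labelled as the GFP control. Each group was represented by 3 libraries of poly(A)-selected RNA, described by the submitters as biological replicates. All A375RIPK4.KO libraries came from 1 clone, and GFP is named only in the A375neg titles. Loss of RIPK4, differences between clones and any difference in GFP therefore cannot be told apart. The counts per library summed to between 21882863 and 26694140.

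Urokinase and tPA cleave the inactive zymogen plasminogen into plasmin, a broad-specificity serine protease that degrades fibrin and parts of the extracellular matrix. Urokinase acts mainly while bound to its receptor at the cell surface, and tPA acts mainly on fibrin. Serpins stop such proteases by offering a bait loop, whose cleavage traps the enzyme in a covalent complex. Tumour cells, melanoma cells among them, use this system in pericellular proteolysis during invasion.

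Since the genes were selected on the comparison between these groups, their differences are given as a description with no p-value. A gene was called when edgeR gave an adjusted p under 0.05 and the fold change was at least 1.5. All 8 genes passed the filter on low counts. Of the 8, 2 were called higher in A375RIPK4.KO (SERPINF1 and HTRA1), 2 were called lower (SERPINE2 and TMPRSS15) and 4 were not called (PLAU, PLAT, PLAUR and SERPINB8). Over the 14443 genes tested, 9.04% were called, 4.39% higher and 4.65% lower. The groups did not overlap for 6 of the 8 genes, 3 higher and 3 lower, against 36.5% of all genes tested. The median log2 fold change of the 8 genes was -0.12, beside -0.005 over all genes. The genes therefore did not share 1 direction, and the individual genes are described by role below.

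RIPK4 itself was lower in the libraries labelled as knockout (log2 fold change -2.69 ± 0.17 (SE), adjusted p = 1.01e-05 by edgeR's quasi-likelihood test). Of 9 melanoma and melanocyte markers, 6 were listed in the table, and their summed level was 1079 to 1187 CPM (counts scaled to the library size) in A375neg and 869.8 to 900.9 CPM in A375RIPK4.KO. SOX10, MITF, CSPG4 and MCAM were present, PMEL was near the floor (0.591 and 0.476 CPM), and MLANA, TYR and DCT were not listed. For 5 of the 6 listed markers, all A375RIPK4.KO libraries were below all A375neg libraries. The groups did not overlap, in either direction, for 36.5% of all genes tested. The log2 fold changes of SOX10 (-0.20), MITF (-0.44), CSPG4 (-0.43) and MCAM (-0.37) were under the fold limit. The summed levels of markers of other cells were 7.50 to 9.23 CPM in A375neg and 6.20 to 6.47 CPM in A375RIPK4.KO for fibroblasts (4 of 5 listed). For keratinocytes (3 of 5 listed) they were 71.5 to 75.2 and 53.3 to 66.2 CPM. For endothelial cells (4 of 4 listed) they were 12.2 to 16.5 and 17.9 to 19.7 CPM, and for leukocytes (3 of 5 listed) 42.2 to 48.9 and 47.4 to 51.4 CPM. CD68 made up most of the leukocyte sum (44.5 against 49.0 CPM, not called). PTPRC had 0 to 3 and CD14 0 to 12 counts per library, and CD3E and MS4A1 were not listed. Of the single markers tested by edgeR, the keratinocyte keratin KRT14 was lower (20.4 against 6.06 CPM, log2 fold change -1.75 ± 0.13, edgeR adjusted p = 3.46e-05), while KRT10 made up most of the keratinocyte sum (53.1 against 52.9 CPM). The endothelial markers went in both directions, with PECAM1 lower (0.882 against 0.199 CPM, log2 fold change -2.12 ± 0.39, edgeR adjusted p = 0.00556) and KDR higher (12.3 against 18.6 CPM, log2 fold change 0.60 ± 0.14, edgeR adjusted p = 0.0216). PECAM1 was rare, with 21, 23 and 24 counts in A375neg and 4, 5 and 5 in A375RIPK4.KO. The melanocyte marker S100B was lower (log2 fold change -0.89 ± 0.24, edgeR adjusted p = 0.036). The call of KDR was lost without A375neg replicate 2 (0.52) or 3 (0.51) and without A375RIPK4.KO replicate 2 (0.57) or 3 (0.58), and that of S100B without A375neg replicate 2 (-0.93) or 3 (-0.63) and without A375RIPK4.KO replicate 1 (-0.87) or 3 (-0.93). The part of these markers in the differences below was not tested.

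The 250 bases before the annotated start are shown for the called genes that have an entry in the RefSeq promoter table (GRCh38.p14), because these genes carry the differences between the groups. Capitals mark matches, on either strand, to the AP-1 motif TGANTCA, the M-box core CATGTG bound by MITF, the GC box GGGCGG, the TATA box TATAAA and the TEAD motif GGAATG. The windows are chr21:18403786-18404035 on the minus strand for TMPRSS15, chr10:122461303-122461552 on the plus strand for HTRA1, and chr2:224031479-224031728 on the minus strand for the downstream start of SERPINE2. The upstream start of SERPINE2 is described below without its sequence.
TMPRSS15: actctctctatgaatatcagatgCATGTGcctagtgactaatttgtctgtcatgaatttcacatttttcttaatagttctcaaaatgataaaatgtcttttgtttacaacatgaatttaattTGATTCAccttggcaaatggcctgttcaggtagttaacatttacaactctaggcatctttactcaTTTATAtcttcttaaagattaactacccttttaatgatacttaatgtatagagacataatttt
HTRA1: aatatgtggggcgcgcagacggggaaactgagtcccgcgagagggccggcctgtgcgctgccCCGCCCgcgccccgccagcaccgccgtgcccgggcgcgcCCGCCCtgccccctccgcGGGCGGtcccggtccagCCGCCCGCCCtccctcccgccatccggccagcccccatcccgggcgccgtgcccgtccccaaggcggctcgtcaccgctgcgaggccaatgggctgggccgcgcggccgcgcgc
SERPINE2: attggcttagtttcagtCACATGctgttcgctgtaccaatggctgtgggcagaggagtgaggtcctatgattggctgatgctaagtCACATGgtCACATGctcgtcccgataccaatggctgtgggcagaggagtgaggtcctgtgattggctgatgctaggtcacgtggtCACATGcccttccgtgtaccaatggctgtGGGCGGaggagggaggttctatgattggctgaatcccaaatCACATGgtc

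These 3 windows differed widely in base composition. The TMPRSS15 window held 29.2% G and C and 0 CpG sites, whereas the HTRA1 window held 81.2% G and C and 39 CpG sites. The median over 35116 promoter windows of this length was 58% G and C and 11 CpG sites. In the TMPRSS15 window, which lies within the span of the gene, there was 1 match each to the AP-1 motif, the M-box core and the TATA box. The end of this window overlaps the exon given for TMPRSS15 in the deposited table (18403750 to 18403806). The HTRA1 window held 5 GC boxes, of which a pair overlap, and no match to the other motifs.

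The SERPINE2 window, which lies within the span of the gene, held 5 matches to the M-box core and 1 GC box. A window with at least 5 such matches was found 4 times among the 35116, or 0.0114%, this window included. The limit of 5 was taken from the count in this window, so the share is a description and supports nothing. Similar stretches of sequence recur along the window and hold the matches, which therefore cannot be read as independent sites. The upstream start of SERPINE2, at chr2:224038641-224038890 on the same strand, held 0 M-box cores and 2 GC boxes, with 75.2% G and C and 28 CpG sites. Of all windows, 9.42% held the M-box core, 6.57% the AP-1 motif, 42.6% the GC box, 10.7% the TATA box and 11.9% the TEAD motif. These matches are a description of the letters, and factor binding was not measured.

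PLAT, which encodes tPA (chromosome 8, 42174718 to 42207565), was the more abundant of the activator transcripts. Its raw counts were 3792, 4306 and 4277 in A375neg and 3891, 5059 and 4743 in A375RIPK4.KO. On the TMM-normalized scale its level was 160.5 ± 5.45 CPM in A375neg and 194.8 ± 20.96 CPM in A375RIPK4.KO (SD, n = 3 each). The A375RIPK4.KO libraries were all above the A375neg libraries, but the difference was 1.21-fold (log2 fold change 0.28 ± 0.08 (SE)) and did not meet the fold limit. In bulk RNA, as for every gene here, fewer cells with a transcript and less of it per cell cannot be told apart.

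PLAU (chromosome 10, 73908832 to 73917494), the urokinase gene, was close to the lower end of the measurable range. It had 38, 37 and 24 counts in A375neg and 25, 14 and 20 in A375RIPK4.KO, or 1.29 ± 0.323 and 0.845 ± 0.260 CPM (SD, n = 3 each). The groups overlapped, and the log2 fold change of -0.61 ± 0.35 (SE) was not called. PLAU shares its locus with the non-coding gene C10orf55, which is not listed in the table, and as the strand setting of the counting is not known, the counts of PLAU and the ratios built on them may include reads of C10orf55. Per kilobase of exon, PLAT exceeded PLAU by 128 ± 40.3 times in A375neg and 245 ± 101 times in A375RIPK4.KO (SD, n = 3 each). The 3 transcripts with the most similar profile to PLAU across the 6 libraries, of 10733 compared, were COMMD2 (Pearson r = 0.991), TCIRG1 (r = 0.991) and ECD (r = 0.99). These correlations are a description over 6 libraries that share their groups. The counts of PLAU were low and the 3 transcripts were picked as the highest of 10733, so the values do not show shared regulation.

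PLAUR (chromosome 19, 43646095 to 43670169), the receptor that anchors urokinase to the membrane, had ample counts in both groups. RN7SL368P and LOC124904724 overlap PLAUR and are not listed, so the counts of PLAUR may likewise include their reads. Its counts were 1753, 1839 and 1818 in A375neg and 1396, 1671 and 1583 in A375RIPK4.KO. The levels of 70.2 ± 1.20 and 66.2 ± 4.50 CPM (SD, n = 3 each) overlapped between the groups, and the log2 fold change was -0.08 ± 0.07 (SE). The receptor transcript was thus more abundant than that of its ligand, by 69.9 ± 19.8 times per kilobase of exon in A375neg and 104 ± 39.2 times in A375RIPK4.KO (SD, n = 3 each).

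SERPINE2 (protease nexin-1; chromosome 2, 223975045 to 224039286), an extracellular inhibitor of thrombin, urokinase and tPA, was the most abundant of the 8 transcripts in every library. Raw counts were 58901, 64088 and 65481 in A375neg and 28733, 30911 and 31164 in A375RIPK4.KO. Every A375RIPK4.KO library lay below every A375neg library. The level was 2445 ± 73.0 CPM in A375neg and 1294 ± 18.4 CPM in A375RIPK4.KO (SD, n = 3 each), a 1.89-fold lower level (log2 fold change -0.92 ± 0.06 (SE)). Per kilobase, SERPINE2 ranked 45 to 49 among 16281 genes with an exonic length in the A375neg libraries and 85 to 104 in the A375RIPK4.KO libraries. It took 87.2% to 87.9% of the raw counts of 17 serpins analysed here in A375neg and 77.3% to 79.0% in A375RIPK4.KO. The non-coding gene LOC124907990 overlaps SERPINE2 and is not listed, so the counts of SERPINE2 may include its reads.

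SERPINF1 (pigment epithelium-derived factor; chromosome 17, 1762060 to 1777565), a secreted serpin without protease-inhibiting activity that is known as an anti-angiogenic factor, was rare in both groups. It had 42, 36 and 16 counts in A375neg and 95, 75 and 69 in A375RIPK4.KO. All A375RIPK4.KO libraries were above all A375neg libraries, with 3.43 ± 0.720 against 1.23 ± 0.557 CPM (SD, n = 3 each). This 2.79-fold higher level (log2 fold change 1.48 ± 0.35 (SE)) was called. The call was lost without A375neg replicate 2 (log2 fold change 1.56) and without A375RIPK4.KO replicate 1 (1.30), although the direction was kept.

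SERPINB8 (chromosome 18, 63970081 to 64019779) encodes an intracellular serpin that can inhibit furin-type and trypsin-like proteases. It had 1226, 1228 and 1108 counts in A375neg and 940, 981 and 999 in A375RIPK4.KO. After normalization the groups did not overlap, but they were close, at 46.3 ± 3.58 and 41.6 ± 0.310 CPM (SD, n = 3 each). The log2 fold change of -0.15 ± 0.07 (SE) was not called. The non-coding gene LOC105372165 overlaps SERPINB8 and had 1 to 15 counts per library.

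TMPRSS15 (enteropeptidase; chromosome 21, 18269116 to 18485884), a membrane-anchored protease best known for activating trypsinogen in the duodenum, showed the largest difference of the 8 genes. Its counts were 1478, 1401 and 1429 in A375neg and 15, 10 and 10 in A375RIPK4.KO. The groups were far apart, at 56.0 ± 3.88 and 0.502 ± 0.144 CPM (SD, n = 3 each), a 112-fold lower level in A375RIPK4.KO (log2 fold change -6.80 ± 0.15 (SE)). Leaving out single libraries gave log2 fold changes from -7.04 to -6.67. Its rank per kilobase passed from 3789 to 4222 in the A375neg libraries to 12921 to 13380 in the A375RIPK4.KO libraries. A count of 3, taken as the limit for a count of 0, corresponds to 0.113 to 0.134 CPM in these libraries. The A375RIPK4.KO libraries were above this limit, which covers counting error only. Whether their few counts reflect remaining expression was not tested.

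HTRA1 (chromosome 10, 122461553 to 122514907), a secreted serine protease of the trypsin fold that cleaves fibronectin and other matrix proteins, was higher in A375RIPK4.KO. It had 148, 159 and 148 counts in A375neg and 309, 320 and 335 in A375RIPK4.KO. The libraries within a group lay close together, at 5.91 ± 0.166 and 13.7 ± 0.117 CPM (SD, n = 3 each), and the groups were separated by 2.33-fold (log2 fold change 1.22 ± 0.12 (SE)). HTRA1 and TMPRSS15 were thus called in opposite directions.

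**Figure D1:**
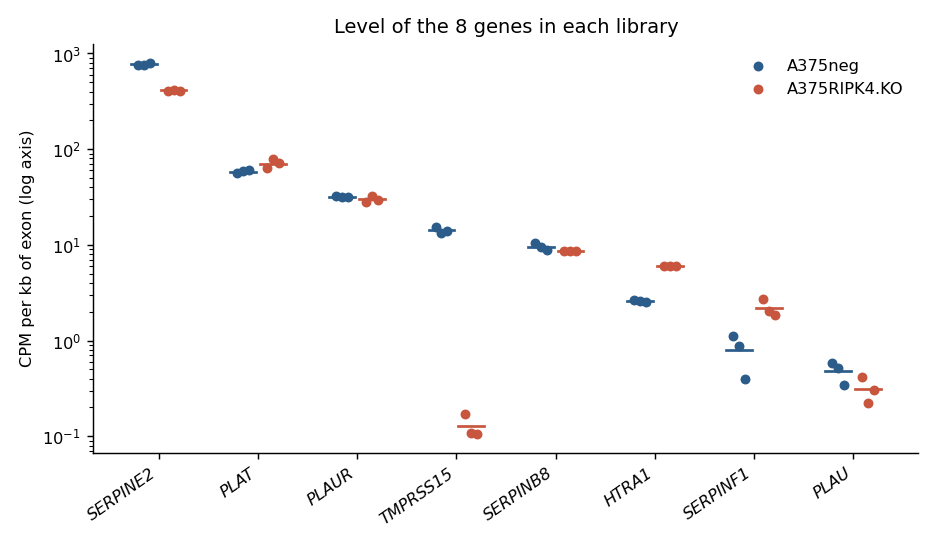
Level of the 8 genes in CPM per kilobase of exon on a log axis, 1 point per library and a line at the group mean, A375neg in blue and A375RIPK4.KO in red. SERPINE2 lies highest in both groups, and TMPRSS15 passes from a mean of 14.2 in A375neg to 0.127 in A375RIPK4.KO.

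In CPM per kilobase of exon, the order of mean levels in A375neg was SERPINE2 (776.5), PLAT (58.2), PLAUR (31.9), TMPRSS15 (14.2), SERPINB8 (9.60), HTRA1 (2.59), SERPINF1 (0.793) and PLAU (0.479). Of the neighbours in this order, SERPINF1 and PLAU overlapped and the others did not. In A375RIPK4.KO, no neighbours overlapped. There SERPINE2 (411), PLAT (70.7) and PLAUR (30.1) kept their places, and SERPINB8 (8.63), HTRA1 (6.03), SERPINF1 (2.21), PLAU (0.315) and TMPRSS15 (0.127) followed. TMPRSS15 thus moved from the fourth place to the last. The plot of levels by library shows these shifts.

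The genes that act with the 8 in the plasminogen system were taken from a list of 19 inhibitors, binding proteins and clearance receptors, of which 17 were listed in the table and 13 were tested. Among these, 1 rose (A2M), 3 fell (LRP1, SERPINA5 and SORL1) and 9 were not called, with a median log2 fold change of -0.28. Over all genes tested, 4.39% were called higher and 4.65% lower. Adjusted p-values in this and the following paragraphs are from edgeR over all genes tested. CPB2, LRP2, THBD and VTN had too few counts to be tested. PLG, which encodes plasminogen, and SERPINF2 were not listed.

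Of the serpins in this list, SERPINA5, the protein C inhibitor, which also inhibits urokinase, had 245, 211 and 233 counts in A375neg and 127, 117 and 98 in A375RIPK4.KO. It fell from 8.97 ± 1.03 to 4.89 ± 0.807 CPM (SD, n = 3 each; log2 fold change -0.87 ± 0.17 (SE), edgeR adjusted p = 0.00842). SERPINE2 and SERPINA5 were thus both called lower. SERPINB2, an inhibitor of urokinase, had a log2 fold change of 0.66 ± 0.26 (edgeR adjusted p = 0.127), and the neuronal tPA inhibitor SERPINI1 one of -1.12 ± 0.58 (edgeR adjusted p = 0.237). The value of SERPINI1 was -2.02 without A375RIPK4.KO replicate 2 and -0.71 without A375RIPK4.KO replicate 1.

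Per kilobase of exon, SERPINE2 exceeded SERPINA5 by 228 ± 26.6 times in A375neg and 224 ± 38.3 times in A375RIPK4.KO (SD, n = 3 each), and the groups overlapped in this ratio. SERPINE2 exceeded PLAT by 13.4 ± 0.289 times in A375neg and 5.86 ± 0.565 times in A375RIPK4.KO (SD, n = 3 each). This ratio was lower in every A375RIPK4.KO library (5.35 to 6.47) than in every A375neg library (13.04 to 13.6). The summed activator level (PLAU and PLAT) was 58.7 ± 1.87 CPM per kilobase in A375neg and 71.0 ± 7.50 in A375RIPK4.KO (SD, n = 3 each). These ratios and sums contain the selected genes, so they are a description, and they concern transcripts and not protein or activity.

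**Figure D2:**
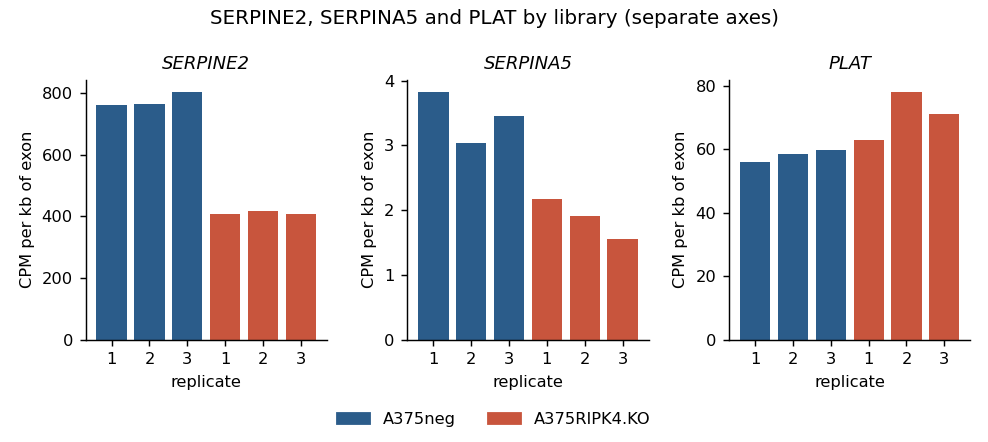
CPM per kilobase of exon of SERPINE2, SERPINA5 and PLAT, 1 bar per library on separate axes from 0, A375neg in blue and A375RIPK4.KO in red. SERPINE2 (mean 411 against 776.5) and SERPINA5 (1.87 against 3.43) are lower in the A375RIPK4.KO libraries, and PLAT (70.7 against 58.2) is higher.

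A2M (alpha-2-macroglobulin, a protease-trapping protein that also binds plasmin) had 120, 161 and 159 counts in A375neg and 301, 346 and 433 in A375RIPK4.KO, and rose (log2 fold change 1.43 ± 0.16, edgeR adjusted p = 0.000294). LRP1, the endocytic receptor that clears serpin-bound proteases and alpha-2-macroglobulin, fell (log2 fold change -0.78 ± 0.14, edgeR adjusted p = 0.00488). SORL1, a sorting receptor of the same receptor family that binds urokinase and its complexes, had 33, 25 and 28 counts in A375neg and 11, 2 and 7 in A375RIPK4.KO and fell (log2 fold change -1.95 ± 0.51, edgeR adjusted p = 0.0293). Its call was lost without A375neg replicate 1 (log2 fold change -1.80), 2 (-2.06) or 3 (-1.97) and without A375RIPK4.KO replicate 3 (-1.95). LRP1 and SORL1 thus went the same way, and the other endocytic receptors of the list were not called. VLDLR had a log2 fold change of -0.40 ± 0.15 (edgeR adjusted p = 0.101), MRC2, which binds the urokinase receptor, one of -0.33 ± 0.10 (edgeR adjusted p = 0.057), and IGF2R one of -0.14 ± 0.08 (edgeR adjusted p = 0.289).

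Plasminogen binding proteins of the cell surface did not meet both limits of a call. ANXA2 and S100A10 together form a complex that binds plasminogen and tPA. ANXA2 had a log2 fold change of 0.46 ± 0.08 (edgeR adjusted p = 0.00401) and S100A10 one of -0.28 ± 0.07 (edgeR adjusted p = 0.0286), both under the fold limit and opposite in sign. The plasminogen receptor PLGRKT had a log2 fold change of -0.07 ± 0.09 (edgeR adjusted p = 0.683), and ENO1, a glycolytic enzyme that also binds plasminogen, one of 0.02 ± 0.09 (edgeR adjusted p = 0.919).

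**Figure D3:**
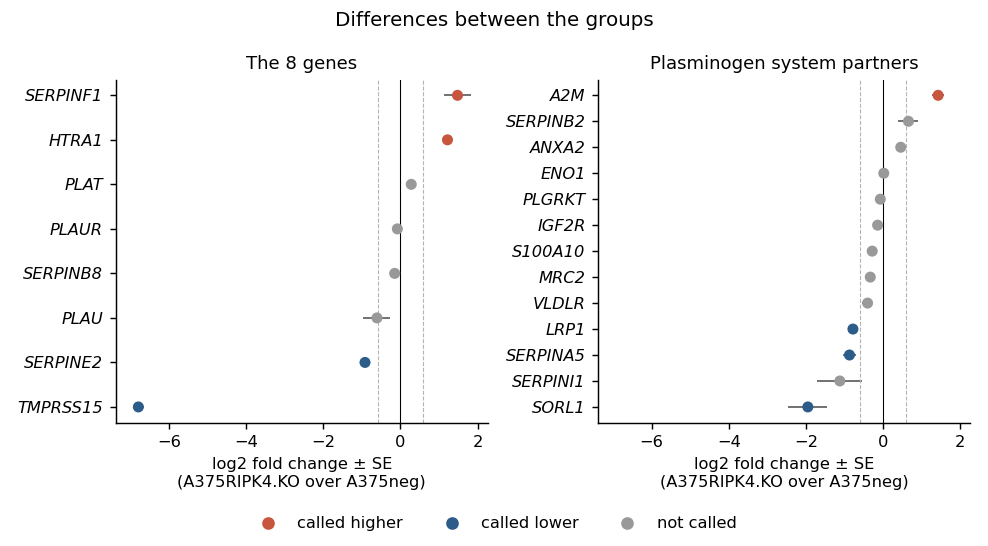
Log2 fold change of A375RIPK4.KO over A375neg with its SE for the 8 genes (left) and the 13 tested plasminogen system partners (right), coloured by call, with dashed lines at the 1.5-fold limit. TMPRSS15 at -6.80 lies farthest from 0 among the 8 genes, and SORL1 at -1.95 among the partners.

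Among 32 further members of the serpin family, 14 were listed and 11 tested, of which 2 rose, 3 fell and 6 were not called (median log2 fold change -0.41). The shares called over all genes tested were 4.39% higher and 4.65% lower. SERPINA5, SERPINB2 and SERPINI1, described above, are among these 11. SERPINB5 (maspin, an epithelial serpin without inhibitory activity) had 28, 23 and 17 counts in A375neg and 513, 663 and 620 in A375RIPK4.KO, and rose 28.8-fold (log2 fold change 4.85 ± 0.19, edgeR adjusted p = 8.2e-07). SERPINB7 rose (log2 fold change 0.84 ± 0.08, edgeR adjusted p = 0.000147). SERPIND1 (heparin cofactor II, a thrombin inhibitor) fell (log2 fold change -1.28 ± 0.22, edgeR adjusted p = 0.00361). SERPINA1 (alpha-1-antitrypsin) fell (log2 fold change -1.26 ± 0.29, edgeR adjusted p = 0.0178), but its call was lost without A375neg replicate 1 (-1.13) or 2 (-1.07) and without A375RIPK4.KO replicate 1 (-1.16). By mean CPM over all 6 libraries, the most abundant of the 11 were SERPINH1, a collagen chaperone, with a log2 fold change of -0.41 ± 0.06 (edgeR adjusted p = 0.00167, under the fold limit), and SERPINA3 (0.28 ± 0.10, edgeR adjusted p = 0.0992).

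SERPINB8 lies at the end of a cluster of 10 SERPINB genes on chromosome 18, which was examined after the values had been seen. The table lists 4 of them, all tested. Going from SERPINB5 (0 kb) to SERPINB7 (276.1 kb), SERPINB2 (410.7 kb) and SERPINB8 (493.1 kb), the log2 fold changes were 4.85, 0.84, 0.66 and -0.15. The other 6 (SERPINB12, SERPINB13, SERPINB4, SERPINB3, SERPINB11 and SERPINB10) were not listed. PLAUR likewise has 4 genes of the Ly6/uPAR list near it on chromosome 19, of which TEX101 was not listed in the table and the others were tested. LYPD3, which starts 185.3 kb from PLAUR, fell (237, 301 and 271 counts in A375neg, 56, 44 and 47 in A375RIPK4.KO, log2 fold change -2.32 ± 0.17, edgeR adjusted p = 3.46e-05). PINLYP (-0.95 ± 0.49, edgeR adjusted p = 0.235) and LYPD5 (-0.42 ± 0.57, edgeR adjusted p = 0.67) were not called. The log2 fold change of LYPD5 was -1.19 without A375RIPK4.KO replicate 1 and 0.01 without A375RIPK4.KO replicate 3.

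A further 5 families of proteases, inhibitors and receptor relatives held 117 genes, of which 54 were listed and 29 tested. Of the 29, 2 rose, 5 fell and 22 were not called, beside 4.39% called higher and 4.65% called lower over all genes tested. Of the HtrA proteases, HTRA3, which like HTRA1 is secreted, rose from 28, 44 and 77 to 105, 140 and 160 counts (log2 fold change 1.58 ± 0.33, edgeR adjusted p = 0.0106), a call lost without A375neg replicate 2 (1.48). The mitochondrial HTRA2 had a log2 fold change of -0.01 ± 0.09 (edgeR adjusted p = 0.975). HTRA1 made up 12.2 ± 0.328% of the summed level of HTRA1, HTRA2 and HTRA3 per kilobase in A375neg and 23.4 ± 1.65% in A375RIPK4.KO (SD, n = 3 each).

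Of 19 further membrane-anchored serine proteases, the family of TMPRSS15, 8 were listed and 1 tested. This gene, TMPRSS5, fell (395, 460 and 388 counts in A375neg, 191, 183 and 153 in A375RIPK4.KO, log2 fold change -1.10 ± 0.14, edgeR adjusted p = 0.000692). Of 62 other trypsin-fold proteases, 9 were tested and 1 fell. That gene, KLK6, had 22, 18 and 19 counts in A375neg and 1, 2 and 3 in A375RIPK4.KO (edgeR adjusted p = 0.00349). The abundant PRSS23 (log2 fold change -0.38 ± 0.07, edgeR adjusted p = 0.0077) and PRSS12 (-0.17 ± 0.08, edgeR adjusted p = 0.184) were not called.

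Of 17 Kunitz, Kazal and WAP-type inhibitors, 7 were tested. TFPI (tissue factor pathway inhibitor) rose (63, 60 and 79 against 147, 122 and 146 counts, log2 fold change 1.17 ± 0.19, edgeR adjusted p = 0.00326). WFDC3 fell (log2 fold change -1.14 ± 0.33, edgeR adjusted p = 0.0465), a call that was kept with A375RIPK4.KO replicate 2 left out. It was lost without A375neg replicate 1 (-1.03), 2 (-1.13) or 3 (-1.25) and without A375RIPK4.KO replicate 1 (-0.84) or 3 (-1.20), and also with no filter on low counts (-1.13) and with a replicate block (-1.19). APP, whose longer forms carry a Kunitz domain, had a log2 fold change of 0.05 ± 0.06 (edgeR adjusted p = 0.641) and its relative APLP2 one of 0.52 ± 0.08 (edgeR adjusted p = 0.00285, under the fold limit). Of 16 Ly6/uPAR family genes beside PLAUR, 10 were tested, and LYPD1 fell (log2 fold change -0.69 ± 0.08, edgeR adjusted p = 0.000527) as did LYPD3. The complement regulator CD59 (0.47 ± 0.07, edgeR adjusted p = 0.00122, under the fold limit) was not called.

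The 8 genes lie on 7 chromosomes. PLAU and HTRA1 share chromosome 10, 48.5 Mb apart, and TMPRSS15 lies 23.3 Mb from RIPK4 on chromosome 21. Of the 16 nearest tested protein-coding genes on either side, 0 were called higher and 3 fell by the edgeR test. By the same test, 4.39% of all genes tested were called higher and 4.65% lower. NCAM2, a cell adhesion gene 2512.5 kb from TMPRSS15, fell (log2 fold change -0.81 ± 0.11, edgeR adjusted p = 0.00132), whereas C21orf91, 449.8 kb away on the other side, had a log2 fold change of -0.09 ± 0.12 (edgeR adjusted p = 0.648). CDH19, a cadherin 2481.3 kb from SERPINB8, fell (log2 fold change -0.83 ± 0.07, edgeR adjusted p = 7.83e-05). DMBT1, 45.8 kb from HTRA1, had 10, 20 and 26 counts in A375neg and 0 in each A375RIPK4.KO library, at least 5.61-fold lower against 3 counts per library (edgeR adjusted p = 0.00516). HTRA1 itself was higher, and PLEKHA1, 19 kb away on the other side, had a log2 fold change of 0.06 ± 0.08 (edgeR adjusted p = 0.683).

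The flanking genes of the other members were not called. Beside SERPINE2 were MRPL44 (0.14 ± 0.10) and CUL3 (0.14 ± 0.05), and beside SERPINF1 were WDR81 (-0.04 ± 0.11) and SMYD4 (-0.16 ± 0.11). Beside PLAT were AP3M2 (0.32 ± 0.12) and IKBKB (-0.02 ± 0.08), beside PLAU were CAMK2G (0.11 ± 0.07) and VCL (0.35 ± 0.06), and beside PLAUR were CADM4 (-0.03 ± 0.08) and SMG9 (0.26 ± 0.06), all as log2 fold change ± SE. VCL (edgeR adjusted p = 0.00327) and SMG9 (edgeR adjusted p = 0.0212) met the limit on adjusted p but were under the fold limit. The differences of SERPINE2 and SERPINF1 were therefore not accompanied by called differences in the nearest tested genes.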

How the data were processed

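Poly(A)-selected, strand-specific libraries were sequenced for 3 A375neg and 3 A375RIPK4.KO samples, grouped by their titles. The authors deposited raw counts per gene, whole numbers without normalization. The submitters' processing notes name cutadapt, FastQC, HISAT2, HTSeq, DESeq2 and the build GRCh38.p13. The strand setting of the counting is not given in the sources used here. The 6 normalized count columns and the fold changes, Wald statistics and p-values of the authors' own comparison were not used. Counts were TMM-normalized, filtered with filterByExpr and tested by quasi-likelihood in edgeR 4.0.16 (R 4.3.3), with p-values adjusted by Benjamini-Hochberg over every gene tested. The limits of a call were an adjusted p of 0.05 and a 1.5-fold difference. These steps were tested on simulated data.

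The members and gene lists were chosen with earlier results of these data known. The text names the 8 genes, every tested partner on the list, in other lists the called genes and the 2 most abundant, the flanking genes and the 3 most similar to PLAU. CPM are counts per TMM-scaled library size, and levels between genes are per kilobase of GENCODE 29 exon (known for 89.4% of the genes tested). The limit of 3 counts for a count of 0 covers counting error only. Positions and promoters are from RefSeq (GRCh38.p14), and PLAT and SERPINF1 were not matched in the promoter table. Alternatives were DESeq2 1.42.0, its size factors in edgeR, no filter, a minimum mean of 50 counts, a replicate block, a gene length correction, other fold limits and the omission of single libraries. The gene clusters were examined after the data had been seen. Some results of these libraries are left out of the lists and text. Figures used Python 3.11.15 and matplotlib 3.10.9.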

Additional observations from a re-analysis of the deposited data

How the results depend on the processing

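Of the 8 genes, 4 were called under DESeq2, under DESeq2's size factors in edgeR, without a filter, with a minimum mean of 50 counts and with the gene length correction. With single libraries omitted, 3 to 4 were called, the lost gene being SERPINF1. Over all genes, 1353 of 20851 were called under DESeq2, 1305 of 14443 with its size factors and 1309 of 20851 without a filter. The minimum mean gave 963 of 11688 and the length correction 1374 of 14443. Omitting single libraries gave from 1059 of 14835 to 1336 of 14931. The 8 genes were selected on this comparison, so their repeated calls are a description. PLAU was not tested at a minimum mean of 50 counts, and no log2 fold change obtained for the 8 genes under these alternatives changed sign. With the fold limit removed 5 were called and with a log2 limit of 1 there were 3. At a log2 limit of 1, 2 plasminogen system partners were called, against 4, and 3 further serpins, against 5. In the 5 protease and inhibitor families together, 11 were called without a fold limit, against 7. The shares called over all genes at these other fold limits were not computed, so these counts have no comparison beside them. The low counts of PLAU, SERPINF1, SERPINI1, SORL1, LYPD5, WFDC3, KLK6 and PECAM1 limit the precision of their differences.

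No pairing of the samples by their shared replicate numbers was evident. The correlations of same-numbered deviations were 0.082, 0.036 and -0.012, and not every sample correlated best with its own number. With 3 libraries per group, these correlations cannot exclude a weak batch shared by same-numbered libraries. With a replicate block, 4 of the 8 genes were called, and 1266 genes in all against 1306. Among the called genes named in the text, WFDC3 lost its call with this block.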
